A study of Mus musculus with 6 samples.

Results

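A group of 6 mature miRNAs that are best known from mesenchymal cells were followed through mouse serum libraries made with 3 small RNA library preparation kits. They are miR-143-3p (MIMAT0000247), miR-145a-5p (MIMAT0000157), miR-199a-5p (MIMAT0000229), miR-199a-3p (MIMAT0000230), miR-214-3p (MIMAT0000661) and the entry MIMAT0000672. They were set by a list of miRBase identifiers in which no measured value enters, although the list was drawn up with earlier results of these data known, and 5 of the 6 had at least 1 read among the 788 miRNAs listed over all libraries. Serum came from healthy male and female 129/SVj mice aged 2 to 9 months, which were sedated with 250 mg/kg tribromoethanol before cardiac puncture. The NEBNext, TruSeq and TailorMix kits were each used for 2 libraries, and every library was size-selected at 125 to 153 bp. The libraries of each kit are labelled serum 1 and serum 2, and are called replicate or library 1 and 2 here. RNA came from serum of individual mice, but whether the same number means the same serum in each kit is not stated. Kit is the labelled factor by which the libraries are grouped, and strain, health, tissue and size selection are shared by all 6 libraries. Neither the labels nor the methods give the mouse, age or sex behind each library, so these may differ between the kits. The p-values measure the spread between these libraries, which may be technical.

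The pair miR-143-3p and miR-145a-5p is transcribed from neighbouring hairpins and is known for holding vascular smooth muscle cells in their contractile state. In other organs it marks fibroblasts and smooth muscle rather than epithelium. The miR-199a arms and miR-214-3p are known from developing mesenchyme, fibroblasts and stellate cells. Of their hairpins, Mir199a-2 and Mir214 lie within a long non-coding RNA antisense to the dynamin gene Dnm3, and Mir199a-1 does not. Serum is cell-free, and its miRNAs may come from any tissue or from blood cells. The tissue of origin could not be read from these libraries.

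The sequences of the miR-199 and miR-214-3p members are shown because identical or nearly identical copies decide which entry a read can be assigned to. They were taken from RefSeq on GRCm38.p6, 5′ to 3′, with the seed (bases 2 to 8) in capitals, and 4 of the 6 names matched the RefSeq miRNA table.
miR-199a-5p: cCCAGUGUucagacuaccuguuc
miR-199a-3p and miR-199b-3p: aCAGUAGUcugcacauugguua
miR-214-3p: aCAGCAGGcacagacaggcagu
Each of the 3 sequences carries a seed of its own. The 5p arm of miR-199a is 23 bases long with 52.2% G and C, whereas both 3p sequences are 22 bases long with 40.9% (miR-199a-3p) and 59.1% (miR-214-3p).

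Mature miR-199a-5p is encoded by 2 gene copies, Mir199a-2 at chr1:162217844-162217866 on the plus strand and Mir199a-1 at chr9:21496537-21496559 on the minus strand. Mature miR-199a-3p lies in the same hairpins at chr1:162217883-162217904 and chr9:21496498-21496519, and another copy of the identical sequence, named miR-199b-3p, lies in Mir199b at chr2:32318524-32318545 on the plus strand. Reads of miR-199a-3p and miR-199b-3p thus cannot be told apart by sequence. The 5p side of the Mir199b hairpin, at chr2:32318485-32318507, differs from miR-199a-5p by the single substitution C10U, counted from 1 at the 5′ end of miR-199a-5p and shown here as the capital.
Mir199b, 5p side: cccaguguuUagacuaccuguuc
Mapping allowed no mismatch, so reads of full length can be assigned to miR-199a-5p or to this stretch. In the GENCODE M21 annotation, Mir199a-1 lies opposite to an intron of Dnm2, Mir199b opposite to an intron of Dnm1, and Mir199a-2 opposite to an intron of Dnm3. Mir214, whose mature 3p arm is at chr1:162223438-162223459, lies 5444 bases from Mir199a-2, and both hairpins fall in an exon of the antisense gene Dnm3os.

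The hairpins Mir143 and Mir145a lie 1301 bases apart on the same strand, and no other gene of the annotation contains either of them in full. Their sequences are not shown here.

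The libraries held 165139 to 351758 miRNA reads, which were 0.914% ± 0.0820 (SD, n = 2) of all annotated small RNA reads for NEBNext, 3.01% ± 0.0223 for TruSeq and 3.74% ± 0.0325 for TailorMix. Levels are given below as a percentage of the library's miRNA reads unless another denominator is named. Because a read covers a mature miRNA and these are of about the same length, levels of different members were compared without division by length. Such comparisons are of reads and not of molecules, and some ratios between members, given below, differed between kits. Intervals of single libraries are 95% Wilson intervals, which cover counting error only, since PCR copies of a molecule were not marked and may be counted more than once.

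miR-143-3p, which is known to restrain proliferation of smooth muscle cells, was by far the most abundant member in every library. Its read counts were 7283 and 5678 for NEBNext, 3778 and 2768 for TruSeq, and 633 and 630 for TailorMix. As a share of miRNA reads, this was 3.24% and 3.44% for NEBNext, 1.07% and 0.981% for TruSeq, and 0.327% and 0.320% for TailorMix. Libraries of different kits did not overlap, and the miRNA stood at rank 8 in both NEBNext libraries, at 20 and 19 with TruSeq and at 43 in both TailorMix libraries. The kit means were 3.34% ± 0.141, 1.03% ± 0.0656 and 0.324% ± 0.00510 (SD, n = 2 each). Over the pooled reads of a kit, the share with NEBNext was 3.22 times that with TruSeq (exact 95% counting interval 3.12 to 3.32) and 10.3 times that with TailorMix (9.69 to 10.9). Differences between the libraries of 1 kit, of 0.0322 to 0.130 on the log2 scale, were below the median over all miRNAs tested, which was 0.276 to 0.325. Of the miRNAs tested, 16.7% to 21.9% had a gap as small or smaller. That median also covers miRNAs with few reads, whose counting error is larger, so it is no comparison at equal depth.

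miR-145a-5p, the partner of miR-143-3p and a repressor of the pluripotency factors Klf4 and Sox2, was far scarcer. NEBNext gave 61 and 41 reads, TruSeq 58 and 55, and TailorMix 22 and 26. Its shares were 0.0271% and 0.0248% (NEBNext), 0.0165% and 0.0195% (TruSeq) and 0.0114% and 0.0132% (TailorMix). The kits kept the order seen for miR-143-3p without overlap, but over a narrower range. The pooled share with NEBNext was 1.47 times that with TruSeq (1.11 to 1.93) and 2.13 times that with TailorMix (1.495 to 3.06).

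miR-199a-5p, known to repress caveolin-1 in fibroblasts, had 112 and 73 reads from NEBNext, 62 and 56 from TruSeq, and 6 and 9 from TailorMix. The corresponding shares were 0.0498% and 0.0442%, 0.0176% and 0.0199%, and 0.00310% and 0.00457%. Again the 3 kits did not overlap. The pooled share with NEBNext was 12.3 times that with TailorMix (7.29 to 22.5), and the share with TruSeq was 4.84 times that with TailorMix (2.82 to 8.93).

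miR-214-3p, known to target the histone methyltransferase Ezh2, had 54 and 24 reads from NEBNext, 9 and 10 from TruSeq, and 11 in each TailorMix library. Its shares were 0.0240% and 0.0145% (NEBNext), 0.00256% and 0.00355% (TruSeq) and 0.00569% and 0.00559% (TailorMix). It was the member for which TailorMix stood above TruSeq, although the pooled ratio of TruSeq to TailorMix was 0.532 with an interval of 0.272 to 1.03. The pooled share with NEBNext was 6.67 times that with TruSeq (4.00 to 11.7). Both NEBNext libraries lay above all others, yet they differed from each other by 0.708 on the log2 scale, a gap as large as or larger than that of 77.8% of the miRNAs tested.

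MIMAT0000672 was the scarcest entry with reads, at 19 and 9 reads for NEBNext, 9 and 10 for TruSeq, and 0 and 1 for TailorMix. It was selected under the name miR-199b-3p, but no file used here pairs the identifier with a name or sequence, so it is called by its identifier. A count of 0 in TailorMix library 1 allows a share of up to 0.00155% at 3 counts. The pooled share with NEBNext was 28.0 times that with TailorMix, with an interval of 4.63 to 1146 that rests on 1 TailorMix read. Where it was read, miR-199a-5p had between 5.60 and 9.00 times as many reads as this entry. To compare this ratio between kits, 0.5 was added to each count. The exact permutation test of its log2 value over the 15 groupings of libraries gave p = 0.533 (adjusted p = 0.533). With 0 and 1 reads of MIMAT0000672 in the TailorMix libraries, the ratio there is poorly determined.

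miR-199a-3p, known to repress mTOR and Met, was not listed in any library. At 3 counts this allows shares of up to 0.000853% to 0.00182% of miRNA reads, depending on the library. That limit holds only if a read of this sequence, which has 3 positions in the genome, could be counted under this identifier, and this was not tested. miR-199a-5p, with 2 positions, was listed in all 6 libraries.

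**Figure D1:**
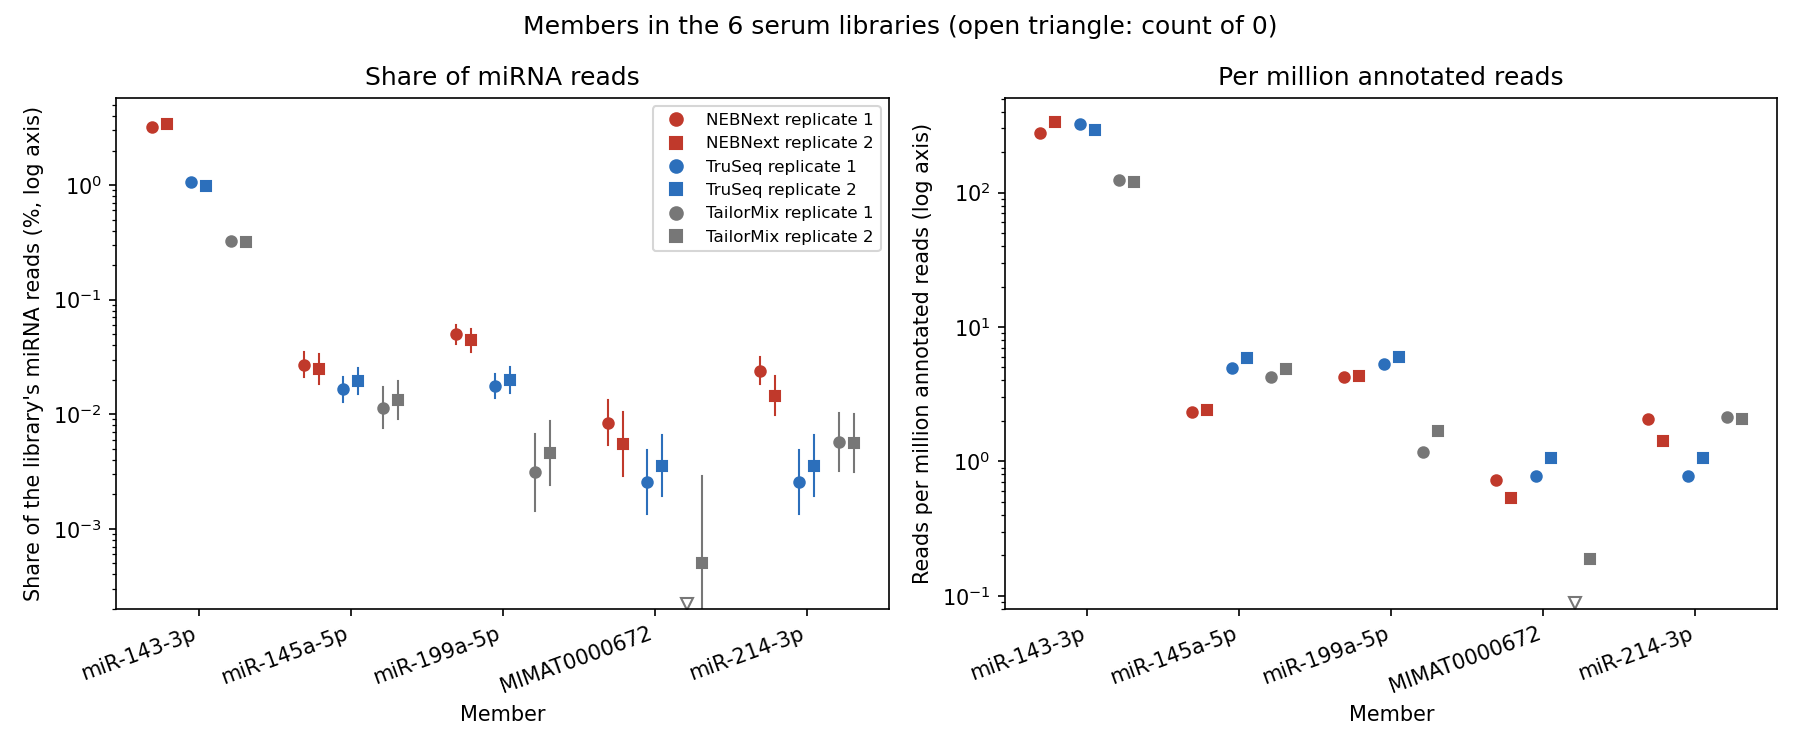
Levels of the 5 members with reads in each library, as a percentage of miRNA reads with 95% Wilson intervals (left) and as RPM of annotated small RNA reads (right), both on log axes, with circles for replicate 1, squares for replicate 2 and an open triangle for a count of 0. On the left NEBNext is highest for every member, with miR-143-3p at 3.24% and 3.44%, whereas on the right NEBNext and TruSeq overlap for miR-143-3p and NEBNext is lowest for miR-145a-5p.

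Together the members took 3.44% ± 0.127 (NEBNext), 1.07% ± 0.0605 (TruSeq) and 0.346% ± 0.00248 (TailorMix) of miRNA reads. miR-143-3p alone made up 97.1% ± 0.526, 96.0% ± 0.703 and 93.6% ± 0.805 of the members' reads, so that this sum is in effect its level. Without miR-143-3p the sum was 0.0992% ± 0.0144, 0.0428% ± 0.00510 and 0.0220% ± 0.00262. The order of the scarce members differed between kits. In both NEBNext libraries the Wilson interval of miR-199a-5p lay above that of miR-145a-5p, and in both TailorMix libraries it lay below. In the TruSeq libraries the intervals of these 2 members overlapped. The intervals of miR-145a-5p and miR-214-3p overlapped in every NEBNext and TailorMix library, and so did those of miR-214-3p and miR-199a-5p with TailorMix.

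The order of the kits depended on the denominator. As a share of miRNA reads, both TruSeq libraries lay below both NEBNext libraries for 5 of 5 members with reads, and this was also so for 61.7% of the 360 miRNAs tested. Both TailorMix libraries lay below both NEBNext libraries for 5 of 5 members (52.8% of all tested), and below both TruSeq libraries for 4 of 5 (30.6% of all tested). MIMAT0000672 entered the tested set through its NEBNext and TruSeq counts alone, so its low TailorMix values are no support for these counts. For the share of miRNA reads, the exact permutation test over the 15 groupings of 6 libraries gave p = 0.0667 for each of the 5 members. This is the smallest value that this design allows, and the adjusted p was 0.0848 over a family of 14 permutation tests. That family held the members under both denominators and the log2 ratios printed in the text. Tests of sums, of other shares and of other forms of the ratios were run but left out of it.

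Levels were also scaled to reads per 1000000 annotated small RNA reads (RPM). On this scale miR-143-3p had 277 and 334 RPM for NEBNext, 325 and 294 RPM for TruSeq, and 123 and 119 RPM for TailorMix. NEBNext and TruSeq thus overlapped, and the exact permutation test gave p = 0.200 (adjusted p = 0.233). miR-145a-5p had 2.32 and 2.41 RPM for NEBNext, 4.99 and 5.84 for TruSeq and 4.28 and 4.90 for TailorMix. By RPM NEBNext was the lowest kit for miR-145a-5p, opposite to its place among miRNA reads. miR-199a-5p had 4.27 and 4.30 RPM for NEBNext, 5.34 and 5.95 for TruSeq and 1.17 and 1.70 for TailorMix, so that TailorMix remained lowest. miR-214-3p had 2.06 and 1.41, 0.774 and 1.06, and 2.14 and 2.08 RPM in the same order of kits, with TruSeq lowest and TailorMix library 2 barely above NEBNext library 1. MIMAT0000672 had 0.724 and 0.530, 0.774 and 1.06, and 0 and 0.189 RPM, with TruSeq rather than NEBNext highest. For miR-145a-5p, miR-199a-5p, miR-214-3p and MIMAT0000672 by RPM, the exact permutation test gave p = 0.0667 each (adjusted p = 0.0848). This is again the smallest value that the design allows. The share of miRNAs among annotated reads differed between the kits as given above, and its part in these differences cannot be told apart from kit.

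Ratios between members of the same library need no scaling between libraries. The ratio of miR-143-3p to its cluster partner miR-145a-5p was 119 and 138 for NEBNext, 65.1 and 50.3 for TruSeq and 28.8 and 24.2 for TailorMix. The 3 kits did not overlap, and the means were 129 ± 13.5, 57.7 ± 10.5 and 26.5 ± 3.21 (SD, n = 2 each). The exact permutation test of the log2 ratios gave p = 0.0667 (adjusted p = 0.0848). The exact counting intervals of the NEBNext libraries, 92.8 to 156 and 102 to 193, lay above those of the TruSeq libraries, 50.3 to 86.0 and 38.5 to 67.0. The TailorMix intervals were 18.8 to 46.2 and 16.4 to 37.4, and of these the first overlapped that of TruSeq library 2.

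The ratio of miR-199a-5p to miR-214-3p was 2.07 and 3.04 for NEBNext, 6.89 and 5.60 for TruSeq and 0.545 and 0.818 for TailorMix. TruSeq was thus highest and TailorMix lowest, an order unlike that of miR-143-3p to miR-145a-5p. The kits did not overlap (exact permutation p = 0.0667, adjusted p = 0.0848). The TailorMix counts were small, and their intervals, 0.166 to 1.61 and 0.2997 to 2.17, contained 1. miR-143-3p and miR-199a-5p, which belong to different clusters, had ratios of 65.0 and 77.8 for NEBNext, 60.9 and 49.4 for TruSeq and 106 and 70.0 for TailorMix. NEBNext and TailorMix overlapped here, while both TruSeq libraries lay below the others (exact permutation p = 0.267, adjusted p = 0.287). The ratios of this paragraph, and that of miR-199a-5p to MIMAT0000672, were chosen after the values were seen, because miR-199a-3p had no reads.

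**Figure D2:**
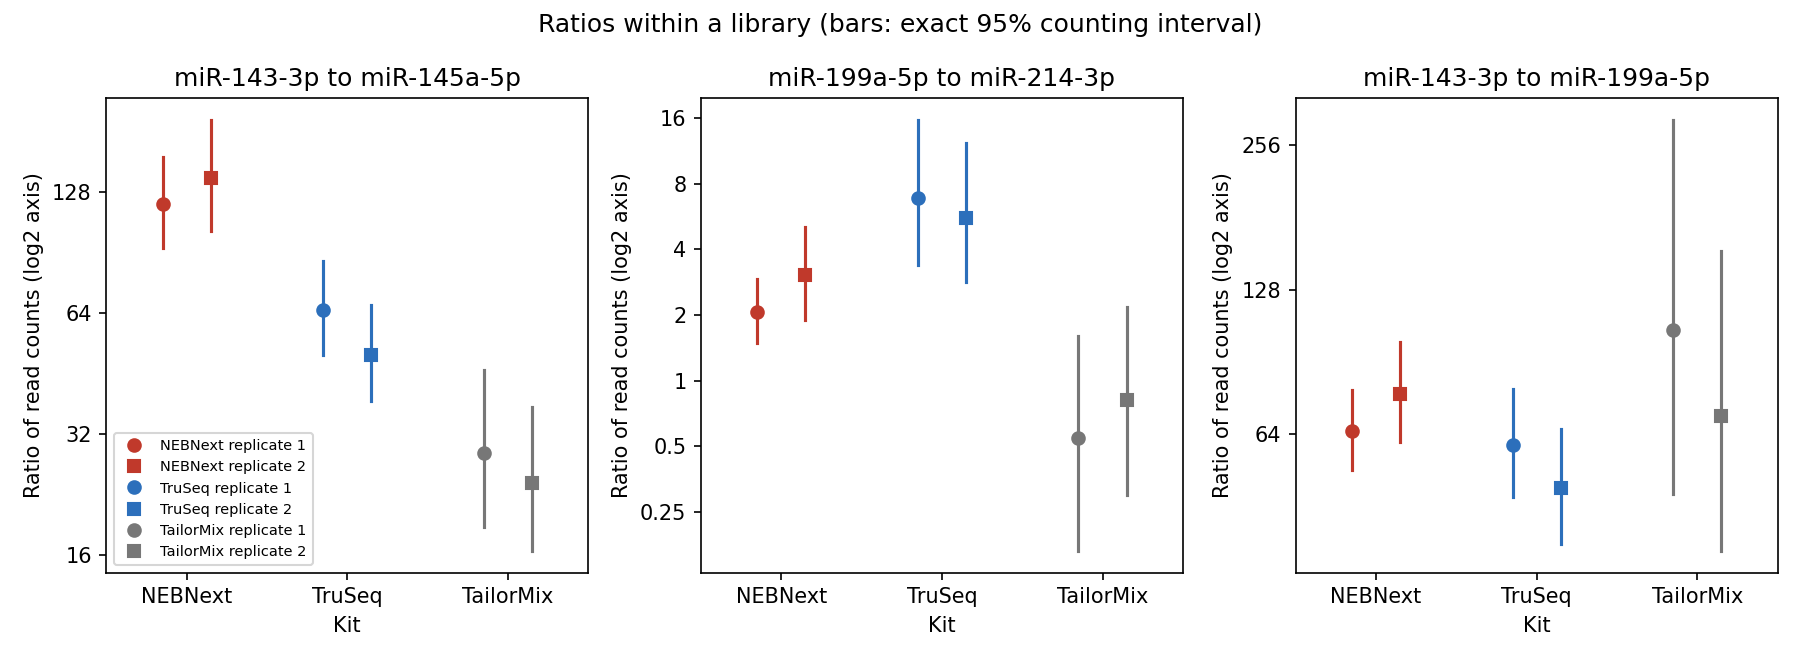
Ratios of read counts of 2 members within each library, on log2 axes, with exact 95% counting intervals as bars, circles for replicate 1 and squares for replicate 2. The ratio of miR-143-3p to miR-145a-5p falls from 119 and 138 with NEBNext to 28.8 and 24.2 with TailorMix, that of miR-199a-5p to miR-214-3p is highest with TruSeq, and that of miR-143-3p to miR-199a-5p overlaps between NEBNext and TailorMix, with both TruSeq libraries lower.

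All 360 miRNAs with at least 4 reads in at least 2 libraries entered edgeR's quasi-likelihood fit of kit, with p-values adjusted over all 360 by Benjamini and Hochberg. The main fit used TMM scaling, which sets libraries level on a trimmed mean of log ratios rather than on their totals. A second fit used the total of miRNA reads. The choice moved the median log2 fold change of all tested miRNAs by 0.95 for TruSeq minus NEBNext, 0.65 for TailorMix minus NEBNext and 0.41 in the opposite direction for TailorMix minus TruSeq. Under TMM these medians were -0.52, -0.24 and 0.50, and under total reads -1.48, -0.88 and 0.91.

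TailorMix was compared with NEBNext first. Under TMM, miR-143-3p was lower with TailorMix by a log2 fold change of -2.71 (SE 0.11, edgeR adjusted p = 3.39e-21). miR-199a-5p was lower by -2.95 (SE 0.33, adjusted p = 1.32e-09) in edgeR. For these 2 members the direction and the call held under total reads as well, at -3.37 and -3.60. Among the fold changes of all miRNAs tested, they stood at percentiles 20.8 and 18.3 under TMM, so many miRNAs fell further. miR-214-3p was lower by -1.15 (SE 0.39, edgeR adjusted p = 0.00931), but DESeq2 did not call it (-1.13, adjusted p = 0.158), nor did edgeR without NEBNext replicate 1 (-0.93), TailorMix replicate 1 (-0.89) or TailorMix replicate 2 (-1.02). miR-145a-5p, at -0.43 (SE 0.28, edgeR adjusted p = 0.158), did not pass the test under TMM, while it did under total reads, at -1.08 (adjusted p = 0.000285), and under TMM without TruSeq replicate 2 (-0.65). MIMAT0000672 passed it in both fits, and its size is given above as a ratio with its counting interval because TailorMix had 0 and 1 reads. In all, 4 of 5 members were called lower under TMM, where 38.3% of all miRNAs tested were, and 5 of 5 under total reads, where 47.8% were. As above, MIMAT0000672 is no support for these counts or for those against TruSeq.

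TailorMix against TruSeq gave 4 of 5 members called lower under TMM, where 28.9% of all miRNAs tested were, and 3 of 5 under total reads, where 24.7% were. miR-143-3p was lower by -2.09 (SE 0.11, edgeR adjusted p = 2.62e-18), and miR-199a-5p by -2.68 (SE 0.35, edgeR adjusted p = 4.13e-08). Both were called under total reads too, at -1.67 and -2.26. Their percentiles among all miRNAs tested were 22.2 and 16.1 under TMM. miR-145a-5p was lower by -0.96 (SE 0.28, edgeR adjusted p = 0.00277) under TMM, but not called under total reads (-0.54, adjusted p = 0.0776) or without TailorMix replicate 1 (-0.68). miR-214-3p, at 0.48 (SE 0.51, edgeR adjusted p = 0.403) under TMM and 0.90 under total reads, passed neither test, and it lay close to the median of all miRNAs in both.

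TruSeq against NEBNext was the comparison in which the scaling decided most. Under TMM, 2 of 5 members were called lower, beside 42.5% of all miRNAs tested, and under total reads 5 of 5 were, beside 53.1%. The 2 of 5 is thus close to the share of all miRNAs. The members called under TMM were miR-143-3p, at -0.63 (SE 0.10, edgeR adjusted p = 1.50e-06), and miR-214-3p, at -1.64 (SE 0.40, edgeR adjusted p = 0.000600). Relative to the median of all miRNAs tested, miR-143-3p stood at -0.10 and miR-214-3p at -1.11. miR-214-3p was not called by DESeq2 (-1.52, adjusted p = 0.0656). miR-145a-5p was at 0.52 under TMM (SE 0.24, edgeR adjusted p = 0.0527) and at -0.55 under total reads (adjusted p = 0.0355), so its direction turned with the scaling. In 5 alternatives it was called higher with TruSeq, at 0.57 to 0.75: with relative log expression normalization (0.59), a minimum of 10 reads (0.57) or the 4 libraries of this comparison alone (0.75), and without TailorMix replicate 1 (0.63) or 2 (0.72). miR-199a-5p, at -0.27 (SE 0.22, edgeR adjusted p = 0.265), and MIMAT0000672, at -0.18 (SE 0.49, edgeR adjusted p = 0.771), were not called under TMM, and both were under total reads, at -1.34 and -1.24.

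**Figure D3:**
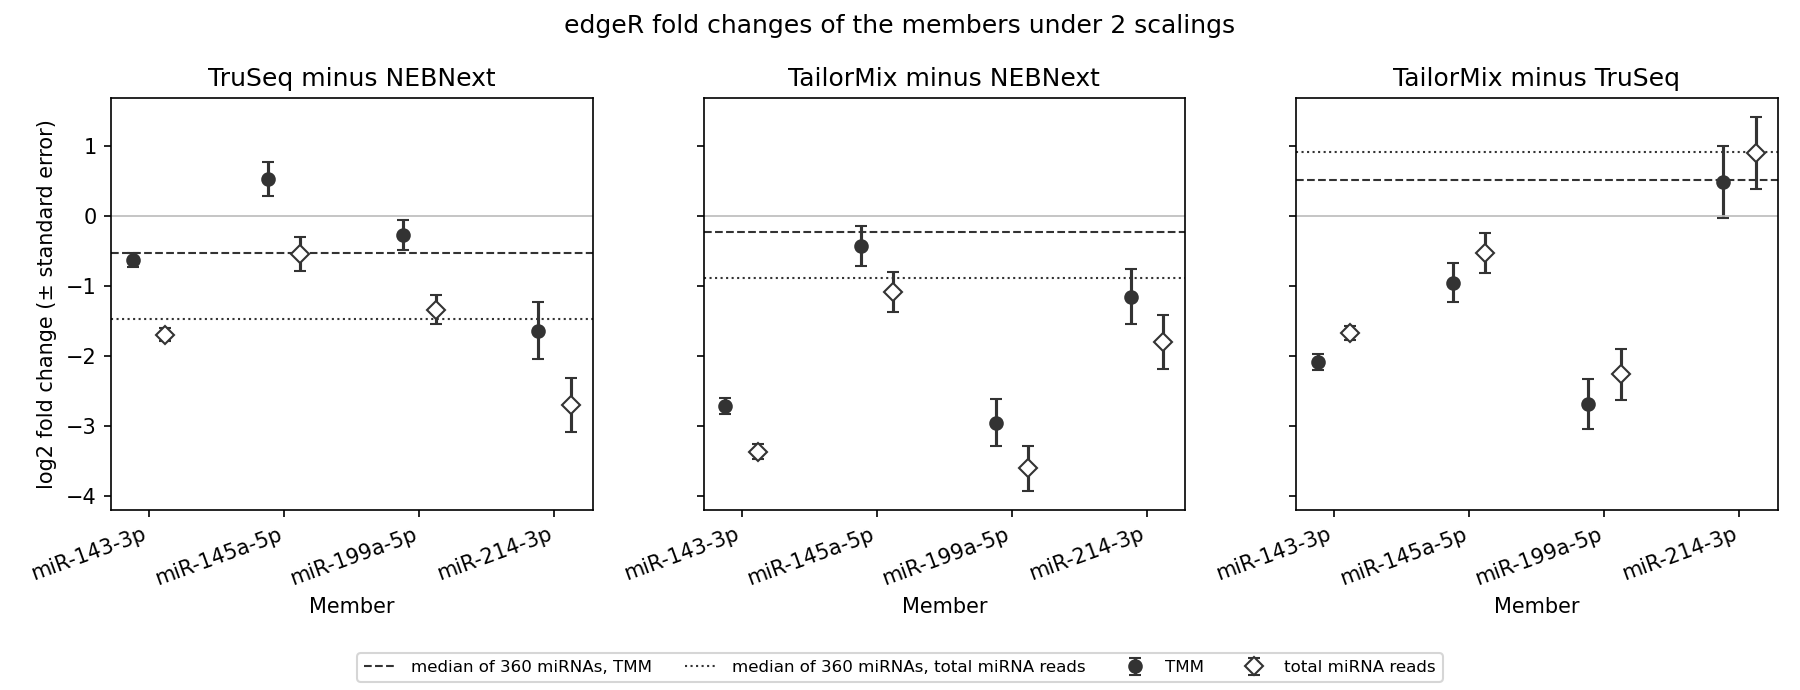
Log2 fold changes from edgeR of 4 members in the 3 kit comparisons, under TMM (filled circles) and with total miRNA reads as library size (open diamonds). Bars are standard errors derived from the F statistic of the test. The dashed and dotted lines give the medians of the 360 miRNAs tested. miR-143-3p and miR-199a-5p lie below both medians in the 2 comparisons with TailorMix, and miR-145a-5p changes sign between the scalings for TruSeq minus NEBNext. MIMAT0000672 is left out because TailorMix had 0 and 1 reads.

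Among the 101 miRNAs with a mean of at least 100 reads, those whose pattern over the 6 libraries was most like that of miR-143-3p were MIMAT0000136 and MIMAT0002889. Their root mean square differences from it, on log2 values centred on each miRNA's own mean, were 0.175 and 0.240. MIMAT0000136 had shares of 0.263% and 0.226% for NEBNext, 0.0810% and 0.0783% for TruSeq and 0.0310% and 0.0289% for TailorMix. MIMAT0002889 had 0.844% and 0.859%, 0.214% and 0.164%, and 0.0594% and 0.0579%. They were picked for this likeness, so their order of kits is no further result. For the other members with reads, the 2 nearest miRNAs lay at 0.256 to 0.605.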

How the data were processed

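For each library the authors deposited read counts per miRNA and per other small RNA sequence. Before that they cut off adaptors with Cutadapt 1.8.1, removed reads shorter than 15 bp, required a quality score of 20 in 80% of bases, mapped to GRCm38 with Bowtie 1.1.2 without mismatches and annotated by position (miRBase release 20, Ensembl release 84). The values are raw counts, and a miRNA without a row was taken as 0. Annotated reads, 5144833 to 26256012 per library, are the sum of both lists.

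Shares, intervals and ratios were computed with pandas 2.3.3, scipy 1.17.1 and numpy 2.4.6 under Python 3.11.15. Kits were compared by the two-sided exact permutation test of the F ratio, and all miRNAs that reached 4 counts in 2 or more libraries by edgeR 4.0.16 in R 4.3.3 (glmQLFit, glmQLFTest, TMM, all 6 libraries, kit as the factor, adjusted p under 0.05). The standard errors (SE) printed with edgeR fold changes were derived from the test, as the absolute log2 fold change divided by the square root of its F statistic. DESeq2 1.42.0, other scalings and filters, the replicate block and single libraries left out were alternatives. Of these steps, only the edgeR fit was tested on simulated counts, for TruSeq minus NEBNext.

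Every member was named. The members and lists were chosen with earlier results of these data known. Lists of other stromal, blood, liver and endothelial miRNAs and the other arms of the members' hairpins could not be matched, because the authors' counts carry miRBase identifiers without names. Since identifiers without names tell little, most-alike miRNAs are printed for miR-143-3p alone, and those of the other members by their distance.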

Additional observations from a re-analysis of the deposited data

How the results depend on the processing

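Of the members' recomputed and tested fold changes, 176 kept their direction and their side of the threshold, 7 lost the call, 9 gained one and 3 changed direction. For TruSeq minus NEBNext, the count of members called was 1 with DESeq2 and 5, all lower, with total miRNA reads, against 2. It was 3 in the 5 alternatives in which miR-145a-5p was called higher with TruSeq. Changes of direction, tested or not, were those of miR-145a-5p, TruSeq minus NEBNext, with total reads (-0.55); relative to the median of all miRNAs, an alternative without a test that was added after seeing the data, of miR-199a-5p (0.25) and MIMAT0000672 (0.34), TruSeq minus NEBNext, and of miR-214-3p, TailorMix minus TruSeq (-0.021); and of MIMAT0000672, TruSeq minus NEBNext, with the 4 libraries of that comparison alone (0.044) and without TailorMix replicate 2 (0.022, in a range over single libraries left out of -0.57 to 0.022). Where a kit kept 1 library, it was assumed to vary like the others. The members together took 0.0315%, 0.0322% and 0.0129% of annotated reads with NEBNext, TruSeq and TailorMix. In a further alternative, the 10 most abundant miRNAs of any library were taken out of the total, except for members (22 removed in all). miR-143-3p, at rank 8 with NEBNext, thus stayed in. The members then took 7.62%, 4.72% and 1.33% of the miRNA reads left. With a replicate block, 232, 250 and 235 miRNAs were called for TruSeq minus NEBNext, TailorMix minus NEBNext and TailorMix minus TruSeq, against 247, 279 and 254, and no call of a member changed. Libraries with the same number deviated together with r = 0.000826, -0.0595 and 0.126 over 102 miRNAs. This cannot decide whether they came from the same serum, because sera that hardly differ would also give values near these. The planned ratios with miR-199a-3p, which had no reads, and a merging of entries of identical sequence were not run. Depth limits miR-199a-5p with TailorMix (6 and 9 reads), miR-214-3p with TruSeq (9 and 10) and MIMAT0000672 most. No cause was tested.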
